A study of Mus musculus with 12 samples.

Results

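In A17α-MHCKO hearts, 3 genes within 0.7 Mb of chromosome 7 were far above their level in A17fl/fl hearts, while genes lying between them differed far less. Pold3 was 13.0-fold higher and P4ha3 was 90.7-fold higher. The long noncoding RNA gene Gm35082, without a count in any A17fl/fl library, was at least 28.5-fold higher by its mean over both treatments. Pgm2l1 and Lipt2, which start between Pold3 and P4ha3, were lower by 59.1% and 46.3%. Ppme1 and Rab6a were lower by 23.4% and 18.7%, and Coa4 was higher by 24.5%. The genes described are these 8 of the 53465 genes in the table: neighbours in the 0.7 Mb that begins at 100 Mb of chromosome 7 (GRCm38), found by name. They were picked with their difference between the genotypes known, so that difference is given as a description without a test, and tests are given for doxorubicin. All 8 passed the filter on low counts. Gm35082 passed it through its A17α-MHCKO libraries alone and so had to differ. P4ha3 reached its limit in all A17α-MHCKO libraries but in only some A17fl/fl libraries.

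RNA was sequenced from the left ventricles of 12 male mice, 3 in each of 4 groups, with 1 library per mouse. The mice were 8 weeks old at the start and carried floxed Adam17 alleles, Adam17 being a protease that sheds membrane proteins. In A17α-MHCKO mice a Cre recombinase under the α-MHC promoter, which is active in cardiomyocytes, removes exon 2 of the gene, while their A17fl/fl littermates have no Cre. Doxorubicin (DOX), an anthracycline that damages the heart, or normal saline (NS) was injected into the peritoneum 4 times at weekly intervals, at 5 mg/kg per DOX injection and 20 mg/kg in total, and hearts were taken 4 weeks after the last injection. The loss of Adam17 cannot be told apart from carriage of the Cre transgene, whose place in the genome is not given in the sources used here. It also cannot be told apart from any difference in the DNA that the genotypes inherited around these genes. In whole ventricle, fewer cells of a type and less RNA per cell cannot be told apart.

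Libraries held 15950717 to 21725076 counts. Adam17 itself was between 43.6 and 70.9 CPM (counts scaled by TMM to one library size) in the 6 A17fl/fl libraries. It was between 27.9 and 36.8 CPM in the 6 A17α-MHCKO libraries, lower by 35.7% with no overlap, where 0.335% of tested genes had none. By edgeR's quasi-likelihood test its p was 0.000294, or 0.446 after adjustment over all tested genes. Without A17fl/fl + NS replicate 1 the ratio of means was 0.693 in place of 0.643. Over both treatments, the summed level separated the genotypes for 0 of 12 lists of cell type markers. After doxorubicin alone, fibroblast markers were lower in A17α-MHCKO hearts without overlap (1370 to 1510 CPM, against 1600 to 1670 CPM in A17fl/fl hearts). Skeletal muscle markers were higher there without overlap (393 to 505 CPM, against 177 to 360 CPM). Of the 4 skeletal muscle markers, 2 had no count in A17fl/fl + DOX hearts and 1 had none in A17α-MHCKO + DOX hearts. Their sum thus rests on part of the list and does not measure skeletal muscle. The part of both lists in the results after doxorubicin was not tested. In every group all 8 cardiomyocyte markers were detected. The library A17fl/fl + NS replicate 1 stood apart from the other 11. Its cardiomyocyte markers summed to 20900 CPM against 31200 to 49100 elsewhere. Its fibroblast markers summed to 8470 CPM against 1190 to 2620, and its neutrophil markers to 2110 CPM against 5.03 to 63.8. Log2 differences of the 8 genes between the genotypes that move by over 1.5 times without this library are given both ways.

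The proteins made by these neighbours share no pathway. Pold3 encodes an accessory subunit of DNA polymerase delta, the enzyme that copies the lagging strand, and holds the enzyme to the sliding clamp. P4ha3 encodes a catalytic subunit of collagen prolyl 4-hydroxylase, which modifies prolines so that the collagen triple helix is stable. Lipt2 starts the attachment of lipoic acid to mitochondrial enzymes, and Coa4 is needed to assemble cytochrome c oxidase. Pgm2l1 makes glucose 1,6-bisphosphate, the cofactor of phosphoglucomutases. Ppme1 removes a methyl group from the catalytic subunit of the phosphatase PP2A, and Rab6a is a small GTPase of traffic through the Golgi. Gm35082 has no role known here.

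The genes stand in the order Pold3, Lipt2, Pgm2l1, P4ha3, Ppme1, Coa4, Rab6a and Gm35082 on chromosome 7 (GENCODE M21, GRCm38). Pold3 (chr7:100082111-100121565, minus strand) points away from the rest. The start of Lipt2 (chr7:100159277-100161365, plus) lies 37.7 kb from that of Pold3. Pgm2l1 (chr7:100227394-100278868, plus) ends 6.65 kb before P4ha3 (chr7:100285520-100319699, plus), so the gene of the 8 with the largest deficit lies next to one that was far higher. Ppme1 (chr7:100326737-100372307, minus) lies 7.04 kb beyond P4ha3 and is transcribed toward it. Coa4 (chr7:100537071-100540369, plus) and Rab6a (chr7:100607410-100641268, plus) start 416 and 486 kb from Pold3. Gm35082 (chr7:100675088-100677760, plus) starts 554 kb away. Ppme1 shares 75 bases with C2cd3, and Rab6a shares 892 bases with Mrpl48, in each case on opposite strands. The kit kept strand, but the strand setting of the counting is not given in the sources used here, so counts in those bases are uncertain.

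The sequences just upstream of the 3 genes that were far higher are shown with that of Lipt2, the nearest neighbour of Pold3, which was lower. They come from RefSeq (GRCm38.p6), in which all 8 genes had an entry, and run 5′ to 3′ on each gene's strand up to the base before its start (that of GENCODE, or of RefSeq for Gm35082). They span chr7:100121566-100121752 for Pold3, chr7:100285270-100285519 for P4ha3, chr7:100674757-100675006 for Gm35082 and chr7:100159027-100159276 for Lipt2. Capitals mark the GC box (GGGCGG or CCGCCC), the CCAAT box (CCAAT or ATTGG) and the TATA box (TATAAA or TTTATA).
Pold3: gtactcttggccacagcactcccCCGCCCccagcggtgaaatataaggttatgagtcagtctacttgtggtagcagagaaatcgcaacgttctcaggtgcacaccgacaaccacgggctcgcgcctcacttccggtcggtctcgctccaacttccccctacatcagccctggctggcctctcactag
P4ha3: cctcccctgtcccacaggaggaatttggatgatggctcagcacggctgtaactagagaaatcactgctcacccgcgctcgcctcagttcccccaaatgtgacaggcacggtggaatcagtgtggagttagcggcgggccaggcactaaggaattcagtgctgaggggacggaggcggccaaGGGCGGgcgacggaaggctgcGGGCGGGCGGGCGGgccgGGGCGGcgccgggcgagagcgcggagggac
Gm35082: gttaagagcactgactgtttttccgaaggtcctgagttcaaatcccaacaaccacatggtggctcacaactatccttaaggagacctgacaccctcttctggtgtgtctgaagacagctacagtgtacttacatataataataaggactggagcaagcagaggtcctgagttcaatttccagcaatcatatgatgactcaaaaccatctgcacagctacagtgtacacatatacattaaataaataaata
Lipt2: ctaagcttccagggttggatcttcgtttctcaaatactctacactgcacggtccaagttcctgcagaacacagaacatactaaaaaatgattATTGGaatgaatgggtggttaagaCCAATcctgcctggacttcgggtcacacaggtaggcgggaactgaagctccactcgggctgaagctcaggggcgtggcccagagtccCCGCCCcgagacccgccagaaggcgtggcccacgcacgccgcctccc

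The upstream windows of the 3 genes that were far higher differed in GC boxes and base composition. The P4ha3 window held 5 GC boxes, 3 of them overlapping, with 23 CpG and 67.2% G and C. A GC box on either strand is present in 32.7% of the 32851 promoter windows of that length. The 187 bases of Pold3 held 1 GC box, present in 22.2% of windows cut to that length, and 11 CpG. The window of Gm35082 held none of the 3 motifs, had 1 CpG and was 40.8% G and C. The window of Lipt2 held 1 GC box and 2 CCAAT boxes, the latter present in 33.8% of windows. Of these 4 windows, 0 held a TATA box, which 12.4% of windows of 250 bases hold. A search for the M-CAT letters of muscle genes (CATTCC or GGAATG) matched 1 place in the Lipt2 window, and matches somewhere in 12.6% of windows of 250 bases. The MEF2 motif matched in 0 of the 4 windows and in 2.92% of all windows of 250 bases. The E-box (CANNTG) matched 1 place for Pold3, 1 for P4ha3, 3 for Gm35082 and 0 for Lipt2, and it is present in 66.2% of windows of 250 bases and 56.8% of windows of 187. A match is a description of letters and not of a bound site.

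Pold3 was low in every A17fl/fl library and high in every A17α-MHCKO library. It was at 12.8, 8.26 and 10 CPM in A17fl/fl + NS hearts and at 9.87, 9.66 and 8.83 CPM in A17fl/fl + DOX hearts. It was at 113, 155 and 149 CPM in A17α-MHCKO + NS hearts and at 137, 136 and 81.6 CPM in A17α-MHCKO + DOX hearts. The lowest knockout library thus lay far above the highest floxed one. The log2 fold change over both treatments was 3.69 (SE 0.17), with 3.75 (SE 0.25) after saline and 3.64 (SE 0.24) after doxorubicin. By level per gene length (FPKM), Pold3 moved from rank 10519 among the 16101 tested genes in A17fl/fl hearts to rank 1917 in A17α-MHCKO hearts.

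By group mean, Pold3 passed from below to above Pold1 and Pold2, other subunits of its enzyme. In FPKM, Pold3 was 1.37 ± 0.369 (SD, n = 3) in A17fl/fl + NS hearts, below Pold1, the catalytic subunit, at 1.87 ± 0.186, and below Pold2 at 7.44 ± 0.597. The libraries of Pold3 (1.1 to 1.79) and Pold1 (1.74 to 2.08) overlapped in that group. In A17α-MHCKO + NS hearts Pold3 was at 19.2 ± 4.17 FPKM, while Pold1 was at 1.71 ± 0.178 and Pold2 at 8.38 ± 0.308. After doxorubicin the A17α-MHCKO values were 15.2 ± 3.90 for Pold3, 1.94 ± 0.138 for Pold1 and 8.35 ± 1.08 for Pold2. Pold4, the smallest subunit, was at 14.2 ± 1.28 FPKM in A17α-MHCKO + NS hearts, and its libraries overlapped those of Pold3. The library A17fl/fl + NS replicate 1 held the highest Pold4 value.

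**Figure D1:**
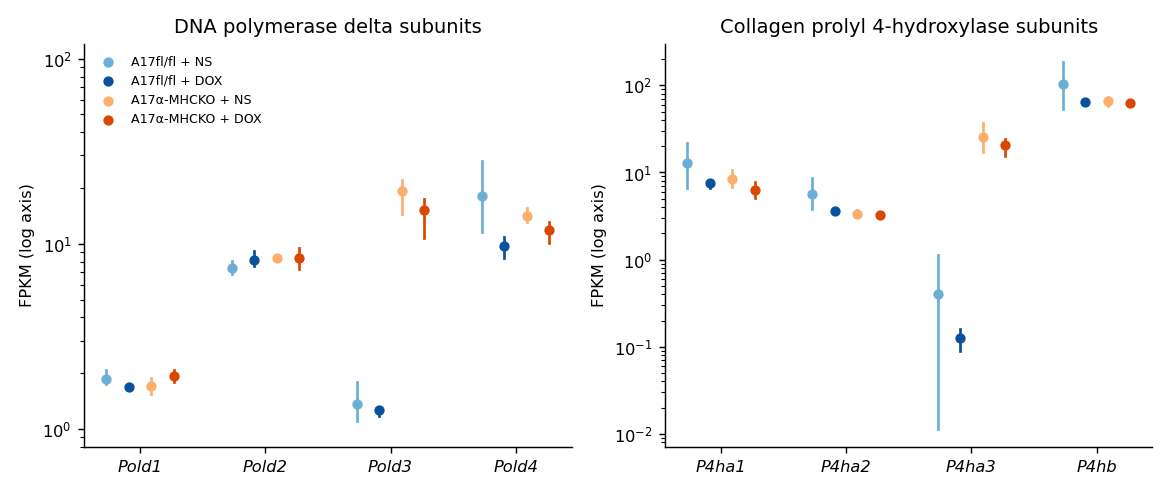
Levels per gene length (FPKM, log axis) of DNA polymerase delta subunits (left) and collagen prolyl 4-hydroxylase subunits (right) in the 4 groups of 3 mice. Points are group means and lines run from the lowest to the highest library; Pold3 and P4ha3 shift between the genotypes (Pold3 from 1.37 to 19.2 FPKM and P4ha3 from 0.401 to 25.8 FPKM after saline), while the other subunits differ far less and overlap between the genotypes over both treatments; within a treatment, Pold2 after saline, Pold1 after doxorubicin and P4ha2 in both did not overlap.

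P4ha3 was close to undetected in most A17fl/fl libraries. It was at 5.25, 0.359 and 0.0626 CPM in A17fl/fl + NS hearts, which rest on 91, 6 and 1 counts, and at 0.629, 0.800 and 0.435 CPM in A17fl/fl + DOX hearts. It was at 90.1, 106 and 170 CPM in A17α-MHCKO + NS hearts and at 79.1, 124 and 114 CPM in A17α-MHCKO + DOX hearts. All knockout libraries lay above all floxed ones. The one floxed library above 1 CPM was A17fl/fl + NS replicate 1, which also had the high fibroblast and neutrophil markers, and the part of those cells in its P4ha3 level was not tested. The log2 fold change was 6.69 (SE 0.67) over both treatments, and 8.25 without that library, where the ratio of means was 249 in place of 90.7. After saline it was 5.99 (SE 0.89), or 9.11 without that library, and after doxorubicin 7.39 (SE 0.99).

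P4ha3 passed from the least to the most abundant of the 3 catalytic subunits. Its share of the summed FPKM of P4ha1, P4ha2 and P4ha3 ran from 0.110% to 3.58% (median 0.982%) in the 6 A17fl/fl libraries and from 62.5% to 76.2% (median 67.1%) in the 6 A17α-MHCKO libraries. In A17α-MHCKO + NS hearts P4ha3 was at 25.8 ± 10.1 FPKM (SD, n = 3), beside 8.42 ± 1.97 for P4ha1 and 3.35 ± 0.282 for P4ha2. P4hb, the partner subunit common to all of them, was at 65.7 ± 8.19 FPKM in A17α-MHCKO + NS hearts and at 103 ± 71.1 in A17fl/fl + NS hearts, where the libraries ran from 53.8 to 184. After doxorubicin P4hb was at 62.6 ± 3.13 FPKM in A17α-MHCKO and 64.5 ± 1.28 in A17fl/fl hearts.

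Gm35082 had 0 counts in all 6 A17fl/fl libraries, which allows up to 3 counts over the group (0.0305 CPM). It had 30, 18 and 13 counts in A17α-MHCKO + NS hearts, or 1.85, 0.777 and 0.756 CPM, and 10, 10 and 9 counts in A17α-MHCKO + DOX hearts, or 0.629, 0.650 and 0.547 CPM. Every A17α-MHCKO library held it and no A17fl/fl library did. The mean of 0.868 CPM against the limit gave the bound of at least 28.5-fold. That bound takes the mean as measured, which A17α-MHCKO + NS replicate 1 raised. Against the same limit it is smaller for the A17α-MHCKO + DOX mean of 0.609 CPM. It remained a rare transcript, at 1.1 FPKM on average and rank 10994 of the tested genes in A17α-MHCKO hearts.

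**Figure D2:**
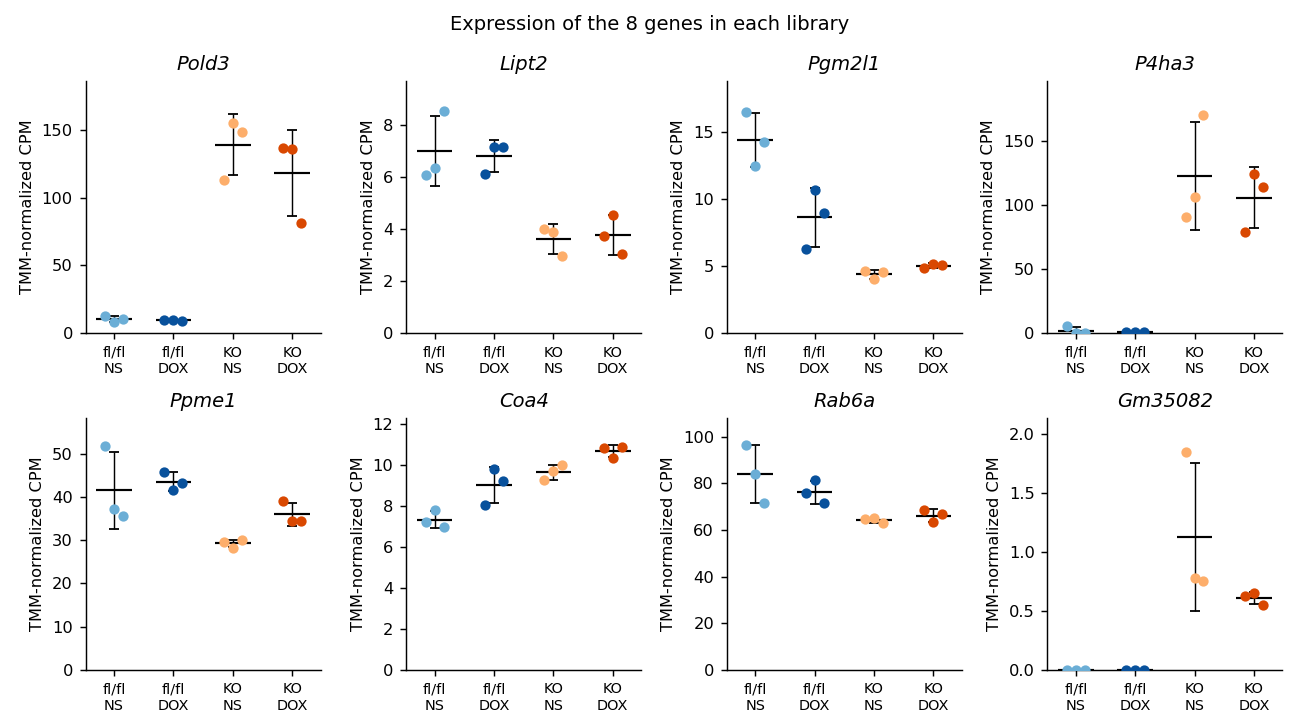
TMM-normalized CPM of the 8 genes in each of the 12 libraries, with the mean (horizontal line) and SD (error bar) of each group of 3 mice; fl/fl is A17fl/fl and KO is A17α-MHCKO, and each panel has its own axis from 0. Pold3, P4ha3 and Gm35082 separate the genotypes upward, Lipt2, Pgm2l1 and Rab6a separate them downward, and Ppme1 and Coa4 separate them within each treatment only.

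The lower genes differed by far smaller amounts. Pgm2l1 was at 16.5, 12.5 and 14.3 CPM in A17fl/fl + NS hearts and at 6.29, 10.7 and 8.95 CPM in A17fl/fl + DOX hearts. It was at 4.63, 4.02 and 4.53 CPM in A17α-MHCKO + NS hearts and at 4.85, 5.20 and 5.10 CPM in A17α-MHCKO + DOX hearts. The knockout libraries were tightly grouped below all floxed ones, and the gap was widest after saline. The log2 fold change was -1.25 (SE 0.15) over both treatments, -1.72 (SE 0.21) after saline and -0.78 (SE 0.20) after doxorubicin.

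Lipt2 was at 6.06, 6.34 and 8.52 CPM in A17fl/fl + NS hearts and at 6.10, 7.14 and 7.15 CPM in A17fl/fl + DOX hearts. It was at 4.01, 3.89 and 2.96 CPM in A17α-MHCKO + NS hearts and at 3.71, 4.55 and 3.04 CPM in A17α-MHCKO + DOX hearts. The genotypes did not overlap, and the difference was of like size in both treatments. The log2 fold change was -0.94 (SE 0.22) after saline and -0.85 (SE 0.22) after doxorubicin.

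Rab6a and Ppme1, the most abundant of the 8 genes in A17fl/fl hearts by FPKM, were lower in A17α-MHCKO hearts by small amounts. Rab6a was between 71.5 and 96.6 CPM in the 6 A17fl/fl libraries (median 78.6) and between 62.8 and 68.5 CPM in the 6 A17α-MHCKO libraries (median 64.8). Those ranges are separated by a narrow gap, and the log2 fold change was -0.30 (SE 0.09). Ppme1 was between 35.7 and 51.9 CPM in the A17fl/fl libraries (median 42.5) and between 28.3 and 39.0 CPM in the A17α-MHCKO libraries (median 32.2). Its genotypes overlapped over both treatments and were apart within each, with a log2 fold change of -0.51 (SE 0.15) after saline and -0.28 (SE 0.14) after doxorubicin. Without A17fl/fl + NS replicate 1, which held the highest level of both genes, the saline difference of Ppme1 was -0.32.

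Coa4 was the only gene of the 8 that was higher by a small amount. It was at 7.21, 7.78 and 6.95 CPM in A17fl/fl + NS hearts and at 9.26, 9.67 and 10 CPM in A17α-MHCKO + NS hearts. After doxorubicin it was at 8.05, 9.79 and 9.20 CPM in A17fl/fl hearts and at 10.8, 10.3 and 10.9 CPM in A17α-MHCKO hearts. The genotypes were apart in each treatment, though A17fl/fl hearts after doxorubicin reached the level of A17α-MHCKO hearts after saline. The log2 fold change was 0.32 (SE 0.10) over both treatments.

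Over both treatments, 6 of the 8 genes had no overlap between the 6 A17α-MHCKO and 6 A17fl/fl libraries, 3 higher and 3 lower, where 0.335% of the 16101 tested genes had none, 0.13% higher and 0.205% lower. Within each treatment all 8 had none, 4 higher and 4 lower, where 10.9% of tested genes had none after saline (5.52% higher and 5.34% lower) and 14.1% after doxorubicin (6.96% higher and 7.13% lower). Since the genes were chosen on this difference, nothing is read from these counts.

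The other genes of the same stretch are given as a description only. The 8 genes were picked from this stretch by their difference, so smaller differences among the rest do not show how far the pattern reaches. The stretch holds 27 genes of the table, of which 19 are not among the 8; of those 19, 6 passed the filter on low counts, 10 had too few counts and 3 had 0 in every library. Log2 fold changes were -0.09 (SE 0.18) for C2cd3, a centriole gene, 0.07 (SE 0.16) for Ucp2 and -0.13 (SE 0.54) for Ucp3, both mitochondrial carriers, and 0.03 (SE 0.23) for Mrpl48, of the mitochondrial ribosome. They were 0.48 (SE 0.31) for Plekhb1 and 0.66 (SE 0.35) for Gm10603. Gm10603 shares 23416 bases with C2cd3 and 1857 with Ucp3 on the other strand, so counts in those bases are uncertain too. The genotypes overlapped over both treatments for each of these 6 genes. C2cd3, Ucp3, Ucp2 and Mrpl48 thus lie between Ppme1 and Rab6a, at their ends overlapping them, with differences no larger than their standard errors, and each changed sign with 1 library or another left out. Gm10603 lies there too and stayed above 0 with each library left out (0.46 to 0.86). After doxorubicin it was at 1.11 (SE 0.50) without overlap, where 14.1% of tested genes had none.

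**Figure D3:**
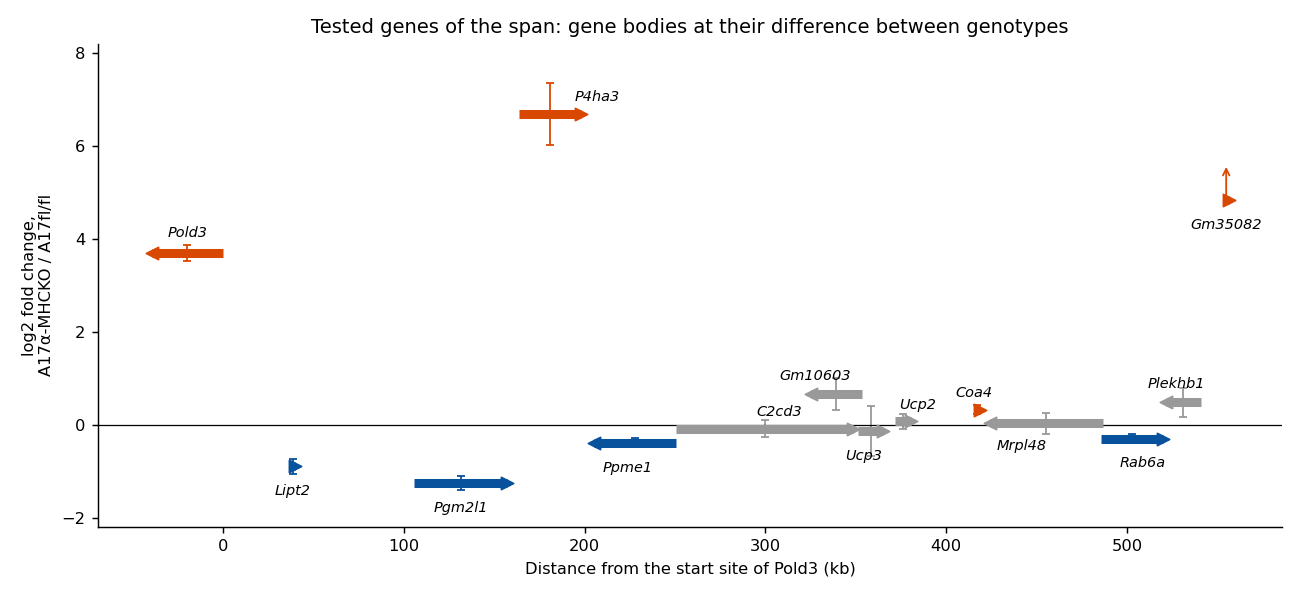
Gene bodies of the 14 tested genes of the stretch, placed by distance from the start of Pold3 (horizontal axis, kb) and by their log2 fold change between A17α-MHCKO and A17fl/fl hearts over both treatments (vertical axis, error bars SE); arrowheads give the direction of transcription. Pold3 and P4ha3 stand at 3.69 and 6.69, Gm35082 is drawn at its lower bound of 4.83 with an upward arrow, blue genes were lower and grey genes are not among the 8.

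Within 2 Mb on either side of the start of Pold3, 55 further genes were tested between the genotypes by edgeR's quasi-likelihood test with Benjamini-Hochberg adjustment over all tested genes. None passed an adjusted p of 0.05 (0 of 55), where 0.0248% of all tested genes did. Most genes behind that share were among the 8, which were chosen on this difference. DESeq2 also called 0 of the 55, and 31 of all tested genes. At an unadjusted p under 0.05, 0 were higher and 5 lower, and of all tested genes 6.65% passed that limit. Their median log2 fold change was -0.11, against -0.01 for all tested genes. Of the 55, 18 were above 0, where 7634 of the 16101 tested genes were. Among the 24 within 1 Mb, 4 were above 0 and the median was -0.19. Of those 24, 0 were higher and 3 lower at an unadjusted edgeR p under 0.05. The 3 of the 55 with the smallest p were Gm45012 at -1.21 (SE 0.45), Lrrc32, a membrane anchor of latent TGF-β, at -0.49 (SE 0.19) and Phox2a, a transcription factor of autonomic neurons, at -0.97 (SE 0.39), each with an adjusted p of 0.736. Gm45012 was at -0.53 without A17fl/fl + NS replicate 2, and Lrrc32 at -0.28 without A17fl/fl + NS replicate 1. With so few calls among all tested genes, 0 of 55 was likely for any stretch. It therefore marks no border to the large differences of Pold3, P4ha3 and Gm35082.

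**Figure D4:**
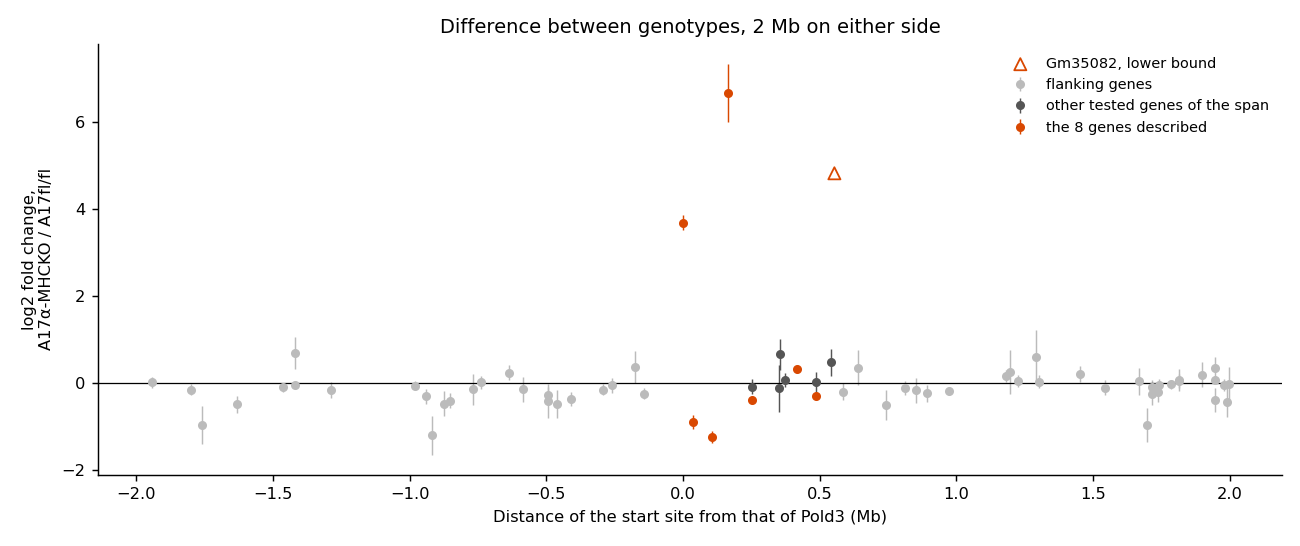
Log2 fold change between A17α-MHCKO and A17fl/fl hearts over both treatments (vertical axis, error bars SE) of the tested genes within 2 Mb of the start of Pold3 (horizontal axis, Mb), with Gm35082 at its lower bound of 4.83 (open triangle). The flanking genes lie between -1.21 and 0.69, and 1 of the 55 lies beyond 1 in either direction.

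Genes with a pattern over libraries like that of Pold3 were sought among all tested genes outside the stretch, by Pearson's r of log2 CPM over the 12 libraries, which fall into 2 genotypes. The first was Trim34b (r = 0.917), on the same chromosome (chr7:104329471-104336909), 4.21 Mb from Pold3. Trim34b was between 0.313 and 0.554 CPM in A17fl/fl and between 1.2 and 2.49 CPM in A17α-MHCKO libraries, with a log2 fold change of 2.10 (SE 0.28, edgeR adjusted p = 0.0358). With 1 library left out at a time, Trim34b passed the test in 1 of 12 fits, with an edgeR adjusted p of 0.0243 to 0.159. It passed with RLE or upper-quartile scaling and without the filter (edgeR adjusted p of 0.0357 to 0.0384). DESeq2 gave it an adjusted p of 2.76e-05. The next was Trim66 (r = 0.893), 9.39 Mb from Pold3 on chromosome 7, at 3 to 5 counts per A17fl/fl and 5 to 14 per A17α-MHCKO library. Cst3 (r = 0.847), Pnrc2 (r = 0.830) and Polb (r = 0.825), on chromosomes 2, 4 and 8, followed. Within the stretch P4ha3 had r = 0.965 with Pold3 and Gm35082 had r = 0.962, while Lipt2 had r = -0.899 and Pgm2l1 had r = -0.862. These values describe mainly the difference between the genotypes.

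Doxorubicin left 0 of the 8 genes past the test in either genotype, over both genotypes or in the difference between genotypes (edgeR's quasi-likelihood test, adjusted p under 0.05; DESeq2 also called 0 of them). Of all tested genes edgeR called 0.0% in each of these comparisons, with 10.7%, 6.42%, 10.7% and 5.99% at an unadjusted p under 0.05. DESeq2 called 151 genes in A17fl/fl hearts, 40 in A17α-MHCKO hearts, 178 over both genotypes and 21 in the difference. At an unadjusted p under 0.05 stood 1 of the 7 genes with a value in A17fl/fl hearts, 0 of 8 in A17α-MHCKO hearts, 1 of 7 over both genotypes and 1 of 7 in the difference.

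Pgm2l1 had the smallest p of the 8 genes with doxorubicin. Its level in A17fl/fl hearts was 14.4 ± 2.0 CPM after saline and 8.65 ± 2.23 after doxorubicin (SD, n = 3), without overlap, a log2 change of -0.74 (SE 0.20). Its p of 0.00347 by edgeR was 0.334 after adjustment over all tested genes. In A17α-MHCKO hearts it was 4.39 ± 0.330 and 5.05 ± 0.182 CPM, a log2 change of 0.20 (SE 0.21). The difference between those changes was 0.94 (SE 0.29), with an edgeR p of 0.00723 and an adjusted p of 0.828, and does not pass the test.

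No change with doxorubicin was called for Pold3 or P4ha3, which does not show that their levels were kept. The change of Pold3 with doxorubicin was -0.13 (SE 0.23) in A17fl/fl and -0.24 (SE 0.22) in A17α-MHCKO hearts, and that of P4ha3 in A17α-MHCKO hearts was -0.21 (SE 0.69). In A17fl/fl hearts P4ha3 gave -1.61 (SE 1.0), which turned to 1.5 without A17fl/fl + NS replicate 1, and so shows no direction. Gm35082 gave -0.87 (SE 0.53, edgeR adjusted p = 0.832) in A17α-MHCKO hearts, and -0.33 without A17α-MHCKO + NS replicate 1, its highest library. In A17fl/fl hearts it was at 0 in both treatments and has no fold.

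Coa4 was higher after doxorubicin without overlap in both genotypes, by 0.30 (SE 0.14) in A17fl/fl and 0.15 (SE 0.14) in A17α-MHCKO hearts on the log2 scale, but its adjusted p was 0.475 and 0.883 by edgeR. Ppme1 was higher by 0.30 (SE 0.15) in A17α-MHCKO hearts with an edgeR adjusted p of 0.794, and differed by 0.07 (SE 0.14) in A17fl/fl hearts. For Lipt2 the changes were -0.04 (SE 0.22) and 0.06 (SE 0.22), and for Rab6a -0.14 (SE 0.13) and 0.04 (SE 0.13). Groups did not overlap for 2 of the 8 genes in A17fl/fl hearts, where 13.3% of tested genes did not, for 4 in A17α-MHCKO hearts, where 16.9% did not, and for 0 over both genotypes, where 1.16% did not.

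**Figure D5:**
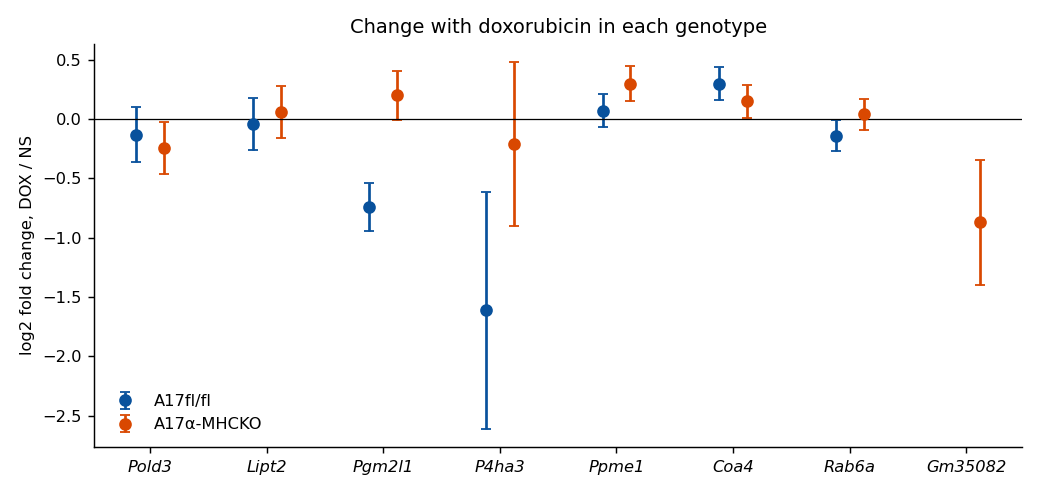
Log2 fold change with doxorubicin against saline (vertical axis, error bars SE) of each of the 8 genes in A17fl/fl and A17α-MHCKO hearts; Gm35082 has no value in A17fl/fl hearts, where it had 0 counts. In A17α-MHCKO hearts the changes lie between -0.87 and 0.30, in A17fl/fl hearts between -1.61 and 0.30, and none passed the test.

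The levels of genes that work with the 7 encoded proteins were compared between the genotypes in the same way. Of 103 partner genes in 7 lists, all tested, edgeR called 0 between the genotypes over both treatments at an adjusted p under 0.05, and DESeq2 called 0. Of all tested genes they called 4 and 31, the 4 of edgeR mostly from among the 8 genes chosen on this difference. At an unadjusted p under 0.05 by edgeR, 2 were higher and 3 lower, where 6.65% of all tested genes passed. The median log2 fold change was -0.03, and 44 of the 103 were above 0, where 7634 of the 16101 tested genes were. The list of collagen prolyl and lysyl hydroxylation had 0 of 13 genes above 0 and a median of -0.24, led by P4ha2 at -0.45 (SE 0.15, edgeR adjusted p = 0.736). Without A17fl/fl + NS replicate 1, the library with high fibroblast markers, that list had 4 of 13 above 0, a median of -0.08 and P4ha2 at -0.27. The list of DNA polymerase delta and zeta with the clamp and its loader had 9 of 16 genes above 0 and a median of 0.02, and its smallest p belonged to Mad2l2, a subunit of polymerase zeta, at -0.18 (SE 0.13).

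In the other lists the smallest p again belonged to genes without a call. Protein lipoylation had 6 of 14 genes above 0 (median -0.02), with Dlst, a subunit of the oxoglutarate dehydrogenase complex, at -0.26 (SE 0.12), or -0.16 without A17fl/fl + NS replicate 1. Phosphoglucomutases and glucose 1,6-bisphosphate genes had 2 of 8 above 0 (median -0.10), with Gpi1, a glycolytic isomerase, at -0.17 (SE 0.10). PP2A phosphatase and its modifiers had 8 of 14 above 0 (median 0.02), with Tiprl, a regulator of PP2A-type phosphatases, at 0.23 (SE 0.09). Cytochrome c oxidase assembly had 15 of 22 above 0 (median 0.08), with Coa5 at -0.28 (SE 0.09). RAB6 regulators and effectors had 4 of 16 above 0 (median -0.08), with Rab6b, the paralog of Rab6a, at -1.68 (SE 0.44), ranging from 0.943 to 35.2 CPM over the A17fl/fl libraries and overlapping between the genotypes.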

How the data were processed

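The 12 libraries were mRNA-seq of left ventricle. Per the submitters' processing notes, CASAVA 1.8, HISAT2, SAMtools 1.3.1, edgeR and the build GRCm39 were used; the study's methods name StringTie for counting. The deposited counts are whole fragments per gene without normalization, and the deposited FPKM are counts per gene length and library total, made by the authors. The deposited columns were all assigned to a mouse by group and replicate number. Per sample, the depth was 15950717 to 21725076 counts, and low values carry counting error beside the spread between mice.

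The counts were fitted with edgeR 4.0.16 under R 4.3.3 (filterByExpr, 16101 genes; TMM; glmQLFit with 4 group means; glmQLFTest; Benjamini-Hochberg adjustment over all tested genes). Standard errors are approximate, from the log2 fold change and the F statistic. Fold changes between genotypes average both treatments unless stated. FPKM served only to set levels of different genes side by side. The lengths it implies exceed the exon bases of GENCODE M21 for Pold3 (7534 against 4601) and P4ha3 (4955 against 3135). Orders and ranks across genes therefore depend on the lengths used. Alternatives were DESeq2 1.42.0, RLE and upper-quartile scaling, no filter, a filter of 10 counts in every library, 2 groups alone, a replicate block, flanks of 1 and 5 Mb and each library left out. The fit was tested on simulated data.

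Positions were taken by Ensembl identifier from GENCODE M21 (GRCm38), which held 53360 of 53465 genes, and no coordinate was converted. Upstream sequences are those of RefSeq before its start of the gene, without bases inside the GENCODE gene. The genes, the lists and the rule for names (all 8 genes, Adam17, tested genes of the stretch, the smallest p of each partner list and the 3 smallest of the flanks or those called, and the 5 genes most like Pold3) were chosen with earlier results of these data known. Mice were separate animals within groups, and within-group chi-square values of 11.1 to 170 per degree of freedom left no pair of libraries alike.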

Additional observations from a re-analysis of the deposited data

Results flagged for a closer look

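In 3 of 17 groups of 6 libraries examined, 1 library stood apart from the other 5 by Dixon's test at the 95% level; chance gives about 1 in 20 groups. P4ha3 in A17fl/fl hearts was at 5.25 CPM in A17fl/fl + NS replicate 1 and at 0.0626 to 0.800 CPM in the other libraries (ratio 0.858). Adam17 in A17fl/fl hearts was at 70.9 CPM in the same library and at 43.6 to 53.2 CPM in the others (ratio 0.647). Gm35082 in A17α-MHCKO hearts was at 1.85 CPM in A17α-MHCKO + NS replicate 1 and at 0.547 to 0.777 CPM in the others (ratio 0.823).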

How the results depend on the processing

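Across the alternatives, the differences of the 8 genes between the genotypes kept their direction, and 0 of them passed the test with doxorubicin under any. The median of all genes moved by under 0.1 on the log2 scale. The filter of 10 counts in every library removed P4ha3 and Gm35082, and the fits of 2 groups alone give no value over both treatments. With flanks of 5 Mb, 1 flanking gene was called (Trim34b). Upper-quartile scaling gave 0.01 for Lipt2 with doxorubicin in A17fl/fl hearts. Leaving out 1 library gave, for doxorubicin in A17fl/fl hearts, -0.27 to 0.04 for Pold3, -0.13 to 0.13 for Lipt2, -2.17 to 1.5 for P4ha3 and -0.03 to 0.25 for Ppme1. In A17α-MHCKO hearts it gave -0.10 to 0.19 for Lipt2 and -0.39 to 0.10 for P4ha3. Over both genotypes it gave -0.07 to 0.09 for Lipt2, -1.19 to 0.65 for P4ha3 and -0.10 to 0.01 for Rab6a. For the difference between genotypes it gave -0.28 to 0.10 for Pold3, -0.08 to 0.23 for Lipt2 and -1.72 to 1.96 for P4ha3. The cause was not tested. The Pgm2l1 change in A17fl/fl hearts ran from -0.92 to -0.55, with an edgeR adjusted p of at least 0.0657.

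A fit with the replicate block called 0 of the 8 genes with doxorubicin and gave 3.69 for Pold3 between the genotypes and an edgeR adjusted p of 0.149 for Trim34b. The numbers do not pair the mice: correlations of same-numbered libraries ran from -0.104 to 0.219, 3 of 18 pairs were over 0.1, and 3 of 12 libraries were closest to their own number. Depth limits Gm35082, at 9 to 30 counts per A17α-MHCKO library, and P4ha3 in A17fl/fl hearts, at 1 to 13 counts in 5 of 6 libraries.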
